A study of Mus musculus with 61 samples.

Results

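Mbp, Pmp22, Ngfr and S100b are 4 genes used to mark Schwann cells and their myelin, and they were followed here in skeletal muscle across 8 inbred mouse strains. The members were the genes with these symbols in the deposited count table, 4 of 19462 genes, and each symbol stood on 1 gene. All 4 passed the filter on low counts, which kept 16682 genes. RNA was sequenced from 61 muscle libraries of the founder strains of the Diversity Outbred mouse population, and the comparison asks how transcript levels in muscle differ with strain on one diet. The strains, named as in the labels, were 129, AJ, B6, Cast, NOD, NZO, PWK and WSB, with 8 libraries each for 129, AJ, B6, NZO and WSB and 7 each for Cast, NOD and PWK. Every library carried the diet label of 45% fat, and the series title gives the diet as high in fat and sugar, so diet was common to the strains and no other diet was compared. No strain was labelled as a control, so each was compared with the other 7, averaged with equal weight. The labels gave no sex, age, batch or muscle name. Nor did they state whether the libraries of 1 strain came from different mice, so each p-value rests on library-to-library spread, some of which may be technical.

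Schwann cells are the glial cells of peripheral nerve, and in muscle they wrap the motor and sensory axons inside the nerve branches and cap the neuromuscular junction. Myelinating Schwann cells wind their membrane many times round a single axon, and structural proteins hold the layers together. Mbp encodes myelin basic protein, which binds the inner faces of the membrane and packs them, and Pmp22 encodes a membrane-spanning protein of compact peripheral myelin whose dosage is known from inherited neuropathies. Ngfr encodes the low-affinity neurotrophin receptor p75, which marks immature, nonmyelinating and injury-responding Schwann cells and is also made by some mesenchymal cells. S100b encodes a calcium-binding protein that is widely used as a Schwann cell marker and that adipocytes also make.

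Libraries held 17.1 to 65.2 M estimated counts, with a median of 33.7 M. Levels are CPM, counts scaled to a common normalised library size, and differences are on the log2 scale. In library B6_5 a ribosomal RNA gene, Rn18s-rs5, held 46.3% of all counts, against at most 9.76% in the other libraries. Each strain had 3 or 4 libraries with Xist above Ddx3y and 3 or 4 with Ddx3y above Xist, so the spread within a strain can include sex, whose part in the results was not tested. All 20 genes of a list of other myelinating Schwann cell markers were measured, among them Prx, a scaffold protein of the Schwann cell, at a mean of 17.2 CPM. None of 7 markers of oligodendrocytes, the myelinating cells of the brain, was among the genes analysed. In bulk muscle, fewer Schwann cells and less RNA per Schwann cell cannot be told apart.

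Pmp22 was the most abundant member and Ngfr the least. Scaled by the length of their exons, the mean levels were 20.5 CPM per kb for Pmp22, 4.23 CPM per kb for Mbp, 2.30 CPM per kb for S100b and 0.306 CPM per kb for Ngfr. Raw counts over the 61 libraries were 337 to 3769 for Pmp22, 352 to 2822 for Mbp, 12 to 554 for S100b and 2 to 158 for Ngfr. The low counts of Ngfr leave more counting error in its values than in those of the myelin genes.

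Among all 8 strains, S100b, Ngfr and Pmp22 changed with strain and Mbp did not pass the test. In edgeR's quasi-likelihood F test the adjusted p was 5.28e-11 for S100b, 0.00345 for Ngfr, 0.00924 for Pmp22 and 0.329 for Mbp. That is 3 of 4 members, where 85.5% of all genes tested were called, so the members are not set apart by being called. The distance between the highest and the lowest strain was 2.59 on the log2 scale for S100b, 1.31 for Ngfr, 0.84 for Pmp22 and 0.63 for Mbp, beside a median of 0.91 over all genes tested. The share of the variance of log2 CPM that lay between strains was 59.3% for S100b, 32.2% for Pmp22, 32.1% for Ngfr and 15.8% for Mbp, and the median gene had 45.4%. The SD within strains was 0.71 for S100b, 0.66 for Ngfr, 0.48 for Mbp and 0.39 for Pmp22 on the log2 scale, each above the median of 0.29 over all genes. By F, 15903 genes ranked above Mbp and 2824 above S100b.

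**Figure D1:**
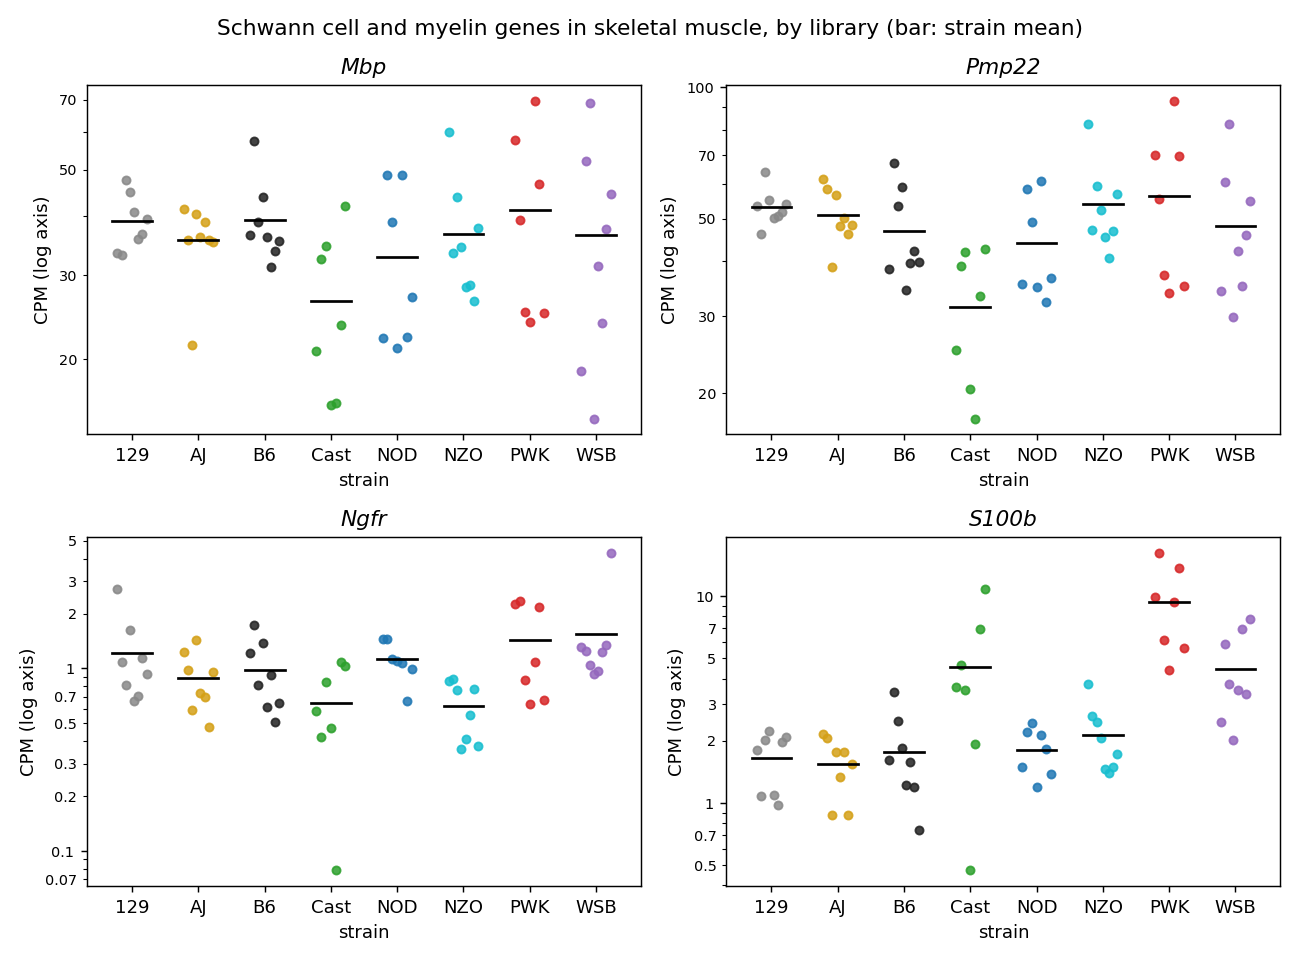
Levels of Mbp, Pmp22, Ngfr and S100b (CPM, log axis) in each of the 61 libraries, by strain; each point is a library and the bar is the strain mean. For S100b the mean of PWK, at 9.33 CPM, is the highest, though its libraries overlap with those of Cast and WSB. The strains overlap widely for Mbp.

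The gene for Mbp lies on chromosome 18 (GRCm38, 82475146 to 82585637, plus strand), and its counts pool all of its transcripts. Its level ran from 33.1 to 47.4 CPM in 129 (median 38.0), from 21.4 to 41.3 in AJ (median 35.9) and from 31.3 to 57.5 in B6 (median 36.3). In Cast it ran from 16.03 to 42.0 CPM (median 23.5), in NOD from 21.1 to 48.8 (median 26.9) and in NZO from 26.4 to 59.9 (median 33.9). In PWK it ran from 23.9 to 69.7 CPM (median 39.1) and in WSB from 15.0 to 68.9 (median 34.4). The ranges of all strains overlapped, and both the highest library, in PWK, and the lowest, in WSB, belonged to strains with wide ranges. The coefficient of variation was 13.4% in 129, 49.8% in WSB and 43.8% in PWK.

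Mbp was lower in Cast, at 26.5 ± 9.98 CPM (SD, n = 7 libraries), against 37.2 ± 2.75 CPM in the other strains (SD, n = 7 strain means). The difference was -0.49 ± 0.20 on the log2 scale (SE), or 0.714-fold, with an adjusted p of 0.0291 by edgeR, and 6 of 7 Cast libraries lay below the median of all libraries. The call ended when library Cast_1, Cast_5, Cast_6 or Cast_7 was left out, with adjusted p up to 0.0985. No other strain passed the test for Mbp, with differences between -0.14 ± 0.19 in NOD and 0.24 ± 0.18 in PWK. The order of the strains by mean log2 level was 129, B6, PWK, NZO, AJ, WSB, NOD and Cast, and none of these neighbours differed beyond their spread. The widest step, NOD over Cast, was 0.30 on the log2 scale (exact two-sided permutation test, p = 0.311, adjusted p = 0.991 over 28 neighbour pairs of the 4 members).

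Pmp22 ran from 46.1 to 63.9 CPM in 129 (median 52.7), from 38.8 to 61.6 in AJ (median 49.4) and from 34.5 to 67.3 in B6 (median 41.1). In Cast it ran from 17.5 to 42.8 CPM (median 33.4), in NOD from 32.4 to 60.9 (median 36.7) and in NZO from 40.6 to 82.6 (median 49.8). In PWK it ran from 33.9 to 93.1 CPM (median 55.5) and in WSB from 29.9 to 82.4 (median 44.2). All 7 Cast libraries lay below the median of all libraries, and 3 of them were lower than any library outside Cast, while the remaining 4 overlapped with them.

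Pmp22 was lower in Cast, at 31.5 ± 10.5 CPM (SD, n = 7 libraries), against 50.6 ± 4.37 CPM in the other strains (SD, n = 7 strain means). The difference was -0.68 ± 0.16 on the log2 scale, or 0.624-fold, with an adjusted p of 0.000324 by edgeR. Leaving out any single library kept the call, with differences from -0.77 to -0.58. The other 7 strains did not pass the test, and their differences ran from -0.12 ± 0.16 in NOD to 0.28 ± 0.15 in PWK. By mean log2 level the order was 129, NZO, PWK, AJ, WSB, B6, NOD and Cast. The first step was 0.0059 and the second 0.0041 on the log2 scale, and the last, NOD over Cast, was 0.52 on the log2 scale (exact two-sided permutation test, p = 0.0565, adjusted p = 0.724).

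Pmp22 (GRCm38, chromosome 11, 63128982 to 63159547, plus strand) is known to be transcribed from more than one promoter, one of them used in Schwann cells and another in many other cell types. The annotation gives it 5 transcripts with 5 start positions, and the gene-level counts pool all of them, so which start gave the lower level in Cast cannot be told from these counts. The 250 bases before 2 of the 4 starts in the RefSeq promoter table (GRCm38.p6) are shown because they are the upstream sequences those counts combine. The first is at chr11:63128732-63128981 and the second at chr11:63131207-63131456, both on the plus strand and written 5′ to 3′. Capitals mark matches to the GC box, GGGCGG on either strand, and overlapping matches run together.
Pmp22 start 1: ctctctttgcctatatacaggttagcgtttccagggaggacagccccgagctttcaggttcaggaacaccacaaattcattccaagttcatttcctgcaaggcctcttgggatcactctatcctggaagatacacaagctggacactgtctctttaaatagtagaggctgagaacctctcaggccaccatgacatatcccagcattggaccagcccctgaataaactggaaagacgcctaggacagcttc
Pmp22 start 2: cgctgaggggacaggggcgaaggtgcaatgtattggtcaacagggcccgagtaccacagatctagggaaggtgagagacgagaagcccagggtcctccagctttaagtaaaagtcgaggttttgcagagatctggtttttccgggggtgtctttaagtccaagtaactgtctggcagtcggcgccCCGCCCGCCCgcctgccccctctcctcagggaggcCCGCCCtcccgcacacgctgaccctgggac
The 2 windows differ in composition, with 48.8% G and C before start 1 and 61.2% before start 2. Start 1 had no match to the GC box and start 2 had 3, and 32.74% of the 32851 promoters in the table had at least 1. Neither window held a SOX core (ACAANG, 36.32% of promoters), an EGR site (GCGNGGGCG, 4.7%) or a TATA box (TATAAA, 12.37%), searched on both strands. A match is a description of letters only, as is its lack, and SOX and EGR factors were chosen because Sox10 and Egr2 are known regulators of myelin genes. Whether the sequences differ between strains was not analysed here.

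Ngfr, the receptor, was read at low levels everywhere. It ran from 0.664 to 2.71 CPM in 129 (median 1.01), from 0.478 to 1.43 in AJ (median 0.846) and from 0.506 to 1.73 in B6 (median 0.869). In Cast it ran from 0.0784 to 1.08 CPM (median 0.588), in NOD from 0.667 to 1.46 (median 1.11) and in NZO from 0.361 to 0.877 (median 0.657). In PWK it ran from 0.635 to 2.35 CPM (median 1.09) and in WSB from 0.937 to 4.31 (median 1.24). The NZO range ended at 0.877 CPM, below the WSB range, which began at 0.937 CPM. All other pairs of strains overlapped. All 8 NZO libraries lay below the median of all libraries and 7 of 8 WSB libraries lay above it. A single WSB library, WSB_9, held the highest value of the 61, and Cast_6, with 2 counts, the lowest.

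Ngfr was lower in NZO, at 0.620 ± 0.219 CPM (SD, n = 8 libraries), against 1.12 ± 0.313 CPM in the other strains (SD, n = 7 strain means). The log2 difference was -0.80 ± 0.28, or 0.575-fold (edgeR, adjusted p = 0.0257), and it missed the threshold without NZO_4, NZO_5 or NZO_8 (adjusted p up to 0.0669). Ngfr was also lower in Cast, at 0.646 ± 0.361 CPM (SD, n = 7 libraries), against 1.11 ± 0.320 CPM in the other strains, a log2 difference of -0.72 ± 0.29, or 0.609-fold (adjusted p = 0.0311). The Cast call ended without Cast_1, Cast_2, Cast_5 or Cast_6 (adjusted p up to 0.111). The other 3 members were not called in NZO. The log2 differences there were 0.05 ± 0.18 for Mbp, 0.21 ± 0.14 for Pmp22 and -0.43 ± 0.26 for S100b, and the difference between the members' responses was not tested.

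Ngfr was higher in WSB, at 1.55 ± 1.13 CPM (SD, n = 8 libraries), against 0.985 ± 0.296 CPM in the other strains (SD, n = 7 strain means). The log2 difference was 0.70 ± 0.24, or 1.63-fold (edgeR, adjusted p = 0.0163). The call rested on WSB_9, and without that library the difference was 0.28 (adjusted p = 0.388). WSB_9 was also the library with the highest sum of lymphocyte and lymph node markers, at 340.3 CPM, and without the 6 libraries over 200 CPM in that sum the difference was 0.17 (adjusted p = 0.751). PWK, at 1.43 ± 0.785 CPM against 1.00 ± 0.328 CPM in the other strains, did not pass (0.57 ± 0.26, adjusted p = 0.0743). The order by mean log2 level was WSB, PWK, NOD, 129, B6, AJ, NZO and Cast, and the widest step, AJ over NZO, was 0.47 (exact two-sided permutation test, p = 0.0775, adjusted p = 0.724).

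S100b set the strains apart more than the other members. It ran from 0.983 to 2.22 CPM in 129 (median 1.89), from 0.871 to 2.16 in AJ (median 1.65) and from 0.744 to 3.45 in B6 (median 1.60). In Cast it ran from 0.473 to 10.8 CPM (median 3.65), in NOD from 1.20 to 2.43 (median 1.83) and in NZO from 1.40 to 3.74 (median 1.90). In PWK it ran from 4.39 to 16.2 CPM (median 9.34) and in WSB from 2.01 to 7.78 (median 3.64). The lowest PWK library was above the highest library of 129, AJ, B6, NOD and NZO, and PWK overlapped with Cast and WSB. Cast spread the widest, with a coefficient of variation of 75.0%, and held the lowest library of all, Cast_5.

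S100b was higher in PWK, at 9.33 ± 4.38 CPM (SD, n = 7 libraries), against 2.56 ± 1.34 CPM in the other strains (SD, n = 7 strain means). The difference was 2.00 ± 0.22 on the log2 scale, or 4.01-fold, with an adjusted p of 5.57e-11 by edgeR. All 7 PWK libraries lay above the median of all libraries and 2 were higher than any library outside PWK. Leaving out any 1 library gave differences of 1.81 to 2.13. S100b was also higher in WSB, at 4.46 ± 2.13 CPM against 3.26 ± 2.88 CPM in the other strains (0.79 ± 0.24, adjusted p = 0.00562), with 7 of 8 libraries above the overall median. In Cast it was higher at 4.56 ± 3.42 CPM against 3.24 ± 2.87 CPM in the other strains (0.83 ± 0.25, adjusted p = 0.00325), but the difference was 0.45 without Cast_8 (adjusted p = 0.126). Without the 6 libraries high in lymphocyte markers, 4 of which were WSB, the WSB difference was 0.56 (adjusted p = 0.219).

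S100b was lower in AJ, at 1.55 ± 0.492 CPM (SD, n = 8 libraries), against 3.67 ± 2.80 CPM in the other strains (SD, n = 7 strain means), a log2 difference of -0.95 ± 0.28 (edgeR, adjusted p = 0.00569). In 129 it was lower at 1.66 ± 0.514 CPM against 3.66 ± 2.81 CPM in the other strains (-0.84 ± 0.28, adjusted p = 0.0182). In B6 it was lower at 1.77 ± 0.853 CPM against 3.64 ± 2.82 CPM in the other strains (-0.72 ± 0.27, adjusted p = 0.0438), and that call ended without any one of B6_1, B6_4, B6_5, B6_6, B6_7, B6_8 or PWK_2 (adjusted p up to 0.117). NOD, at -0.69 ± 0.29, missed the threshold (adjusted p = 0.077), and passed it without Cast_5 (adjusted p = 0.034). The mean of the other strains included PWK in each of these contrasts. The order by mean log2 level was PWK, WSB, Cast, NZO, NOD, B6, 129 and AJ. The first step, PWK over WSB, was 1.06 (exact two-sided permutation test, p = 0.0126), and with an adjusted p of 0.352 over the 28 pairs it did not hold the correction, nor did any other neighbour pair.

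The S100b gene (GRCm38, chromosome 10, 76253853 to 76261159, plus strand) overlaps Dip2a on the opposite strand, with no overlap between their annotated exons. The use of strand in counting is not given in the sources used here, so reads from unspliced Dip2a RNA in that overlap could not be separated. The promoter is shown for S100b because it is the member with the largest strain difference, and that of Ngfr for contrast in composition. They are the 250 bases before the RefSeq start (GRCm38.p6), at chr10:76253586-76253835 on the plus strand for S100b and at chr11:95587699-95587948 on the minus strand for Ngfr. Each is written 5′ to 3′, and capitals mark matches on either strand. These are to the SOX core as searched (ACAANG, N being any base) in S100b and to the GC box (GGGCGG) in Ngfr.
S100b: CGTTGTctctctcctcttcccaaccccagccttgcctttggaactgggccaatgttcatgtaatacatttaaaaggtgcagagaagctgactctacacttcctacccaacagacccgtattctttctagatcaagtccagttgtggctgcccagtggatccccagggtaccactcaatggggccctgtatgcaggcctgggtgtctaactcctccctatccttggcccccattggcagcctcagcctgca
Ngfr: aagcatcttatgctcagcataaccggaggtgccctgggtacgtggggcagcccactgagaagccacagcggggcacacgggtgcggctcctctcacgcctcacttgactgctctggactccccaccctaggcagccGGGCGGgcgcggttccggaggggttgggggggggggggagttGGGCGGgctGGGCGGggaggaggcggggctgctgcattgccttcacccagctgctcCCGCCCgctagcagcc
The S100b window held 53.6% G and C and 1 match to the pattern ACAANG, at its end farthest from the start. On the other strand that match reads ACAACG, so it has C where the pattern allows any base. The Ngfr window held 70.4% G and C and 4 matches to the GC box. The pattern ACAANG, with any base at N, stood in 36.32% of all promoters of that length and a GC box in 32.74%. Neither window held an EGR site, a TATA box or a nuclear receptor motif (AGGTCA, 14.02% of promoters). Ngfr itself spans 95568818 to 95587735 on chromosome 11.

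**Figure D2:**
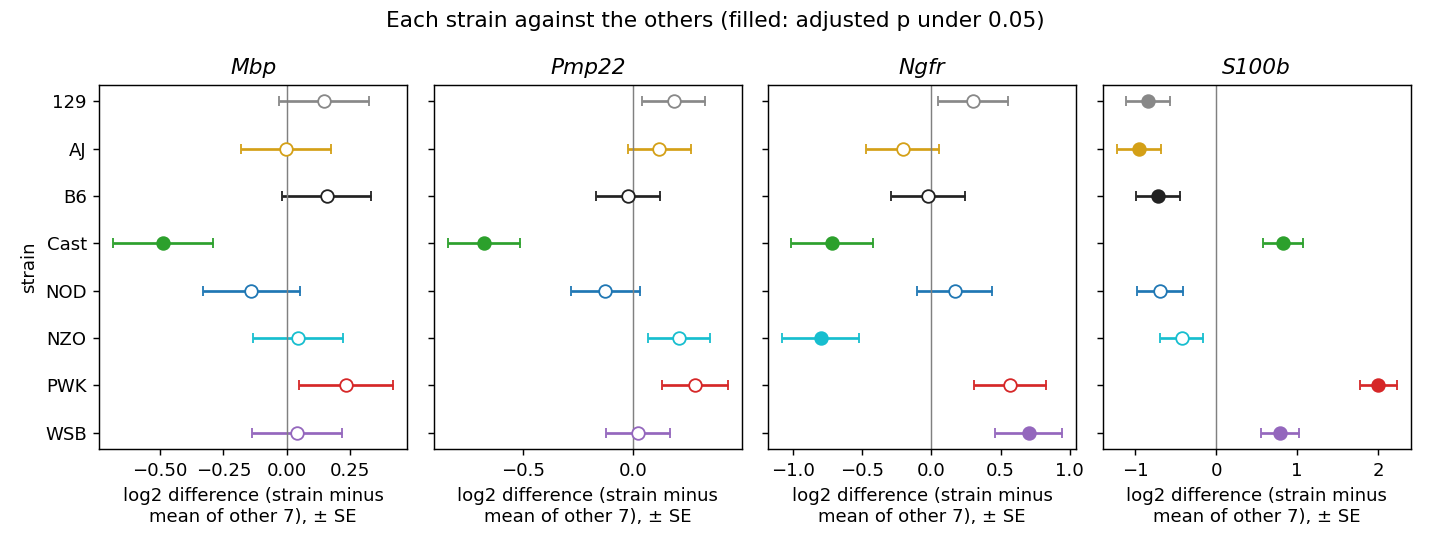
Log2 difference of each strain from the mean of the other 7, with its SE, for each member; filled points had an adjusted p under 0.05 by edgeR, and each panel has its own scale. S100b in PWK, at 2.00, lies farthest from 0, and Cast is low for Mbp, Pmp22 and Ngfr but high for S100b.

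Counted by strain, the 4 members gave 4 calls higher and 7 lower in 32 strain contrasts. The contrasts of 1 gene are not independent, because each strain also enters the mean against which the others are set. In Cast, 1 of 4 members was called higher and 3 lower, where 33.8% of all genes were called higher and 27.9% lower. In WSB, 2 were higher and 0 lower, beside 21.4% and 17% of all genes, and in PWK 1 was higher and 0 lower, beside 20.6% and 20.3%. In 129, AJ and B6 the single call in each was S100b, lower. The background there was 14.2% higher and 11.4% lower in 129, 16.8% higher and 14.9% lower in AJ, and 15% higher and 11.2% lower in B6. In NZO, 0 were higher and 1 lower, beside 14.6% and 12.7% of all genes. In NOD, 0 of 4 were called in either direction by edgeR, beside 11.9% higher and 9.79% lower, and 1 of 4 (S100b) was called lower there by DESeq2 (adjusted p = 0.0447). Cast had the most calls among the members and also the highest share of called genes.

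Within strains, Mbp and Pmp22 varied together closely. Each library's log2 CPM was taken as its deviation from its strain mean, and Pearson's r of the deviations over 61 libraries was 0.94 for Mbp and Pmp22 (Spearman's rho 0.94, adjusted p = 2e-05 by 100000 permutations of libraries within strains, the smallest value being set by p = 1e-05). Both genes lay on the same side of their strain mean in 54 of 61 libraries. Without the 2 libraries farthest from the median of Mbp, r was 0.93. The strain means of the same 2 genes had r = 0.91 over 8 strains.

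S100b followed the myelin genes less closely within strains, and its strain means did not rank as theirs did. Its r was 0.62 with Mbp (rho 0.67) and 0.66 with Pmp22 (rho 0.73), both with adjusted p = 2e-05, and over the 8 strain means r was -0.12 and -0.09. Ngfr had r = 0.42 with Mbp (rho 0.42, adjusted p = 0.0026), 0.52 with Pmp22 (rho 0.51, adjusted p = 3e-04) and 0.60 with S100b (rho 0.65, adjusted p = 0.000135). Over strain means Ngfr had r of 0.47 with Mbp, 0.47 with Pmp22 and 0.30 with S100b. All 6 pairs of members were tested and all 6 passed, and r stayed between 0.46 and 0.93 in each pair without the 2 farthest libraries. Libraries of 1 strain can share nerve content, sex, depth and handling, and the part of each was not tested.

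**Figure D3:**
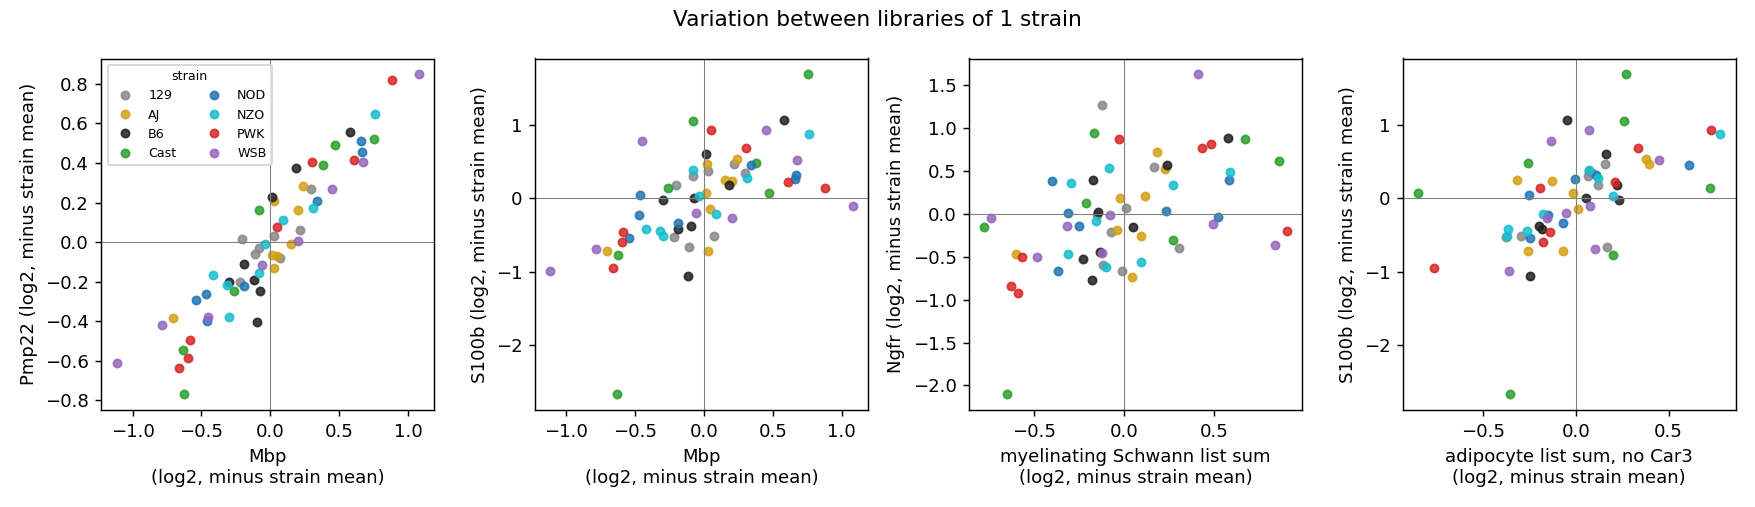
Each library's deviation from its strain mean on the log2 scale: Pmp22 against Mbp, S100b against Mbp, Ngfr against the summed myelinating Schwann cell list, and S100b against the summed adipocyte list without Car3, coloured by strain. The points hug a line for Mbp and Pmp22 (r = 0.94) and scatter more for S100b with the adipocyte list sum (r = 0.55), most of which is Lpl.

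The genes most like each member were ranked by the same within-strain r among 12004 genes with a mean of at least 1 CPM. Among the 6 nearest of Mbp were Prx (r = 0.96), Drp2 (0.95), Pmp22 (0.94), Mal (0.92) and Kif1a (0.90). Among the 6 nearest of Pmp22 were Mbp (0.94), Drp2 (0.94), Prx (0.94), Mal (0.91) and Kif1a (0.90). So both myelin members had Prx, Drp2, Mal and Kif1a among their nearest genes, and Prx, Drp2 and Mal stood on the list of myelinating Schwann cell markers. Of the 16 genes of that list that were ranked, 10 stood among the 50 nearest genes of Mbp, 8 of Pmp22, 1 of S100b and 0 of Ngfr.

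For S100b the nearest genes were Ccdc3 (r = 0.77), Lipe (0.76), Retn (0.75), Adipoq (0.75), Mgll (0.75) and Vat1l (0.74). Retn and Adipoq, the hormones resistin and adiponectin, stood on the adipocyte list, and Lipe and Mgll encode lipases of stored fat. For Ngfr they were Aff3 (r = 0.75), Alg2 (0.71), Postn (0.70), Mcpt4 (0.70), Sec61b (0.70) and Zfp385a (0.68), none of which stood on any of the lists. The median r of the myelinating Schwann cell list was 0.76 with Mbp, 0.73 with Pmp22, 0.52 with S100b and 0.31 with Ngfr, and that of the adipocyte list was 0.33 with Mbp, 0.38 with Pmp22, 0.63 with S100b and 0.43 with Ngfr. The median over all genes lay between -0.0042 and 0.0069 for the members.

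The members were also set against summed marker lists over the 61 libraries. The sum of the myelinating Schwann cell list had r = 0.95 with Mbp and 0.95 with Pmp22, 0.64 with S100b and 0.46 with Ngfr (adjusted p at most 0.0068 over 32 relations of members and lists). The adipocyte sum without Car3, a gene that muscle fibres make in quantity, had r = 0.55 with S100b (rho 0.60, adjusted p = 0.0017). Most of that sum is Lpl, which muscle fibres also make. The same sum had r = 0.34 with Mbp and 0.36 with Pmp22 (adjusted p = 0.044 for each by the same permutations). With Ngfr r was 0.33, which did not pass (adjusted p = 0.06), while rho was 0.45 (adjusted p = 0.0043). The fibroblast and matrix sum had r = 0.60 with Pmp22, 0.52 with S100b, 0.48 with Ngfr and 0.47 with Mbp. The sum of axon and motor nerve genes had r = -0.34 with Ngfr (adjusted p = 0.027) and r between -0.18 and -0.13 with the other 3 members, which did not pass. The nonmyelinating Schwann cell sum, which holds genes such as Nes and Apod that other muscle cells make too, had r = -0.40 with Ngfr (rho -0.28) and -0.40 with S100b (rho -0.25). Neither rho passed (adjusted p = 0.087 and 0.13), and without the 2 farthest libraries r with S100b was -0.22.

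Beside the lower Mbp, Pmp22 and Ngfr in Cast, 10 of 20 other myelinating Schwann cell genes were lower, 2 were higher and 8 did not pass, where 27.9% of all genes were lower and 33.8% higher. The list's median in Cast was -0.43 on the log2 scale, beside 0.040 over all genes. Among all 8 strains, 12 of the 20 list genes were called, beside 85.5% of all genes tested. Drp2, a dystrophin-related protein of the Schwann cell membrane, was lower at 10.6 ± 3.56 CPM in Cast (SD, n = 7), a log2 difference of -0.58 ± 0.20 from the others (edgeR, adjusted p = 0.00934). Ugt8a, an enzyme of myelin lipid synthesis, fell by 0.99 and Gjc3, a connexin of Schwann cells, fell by 0.89. Mag, Cnp, Egr2, Mal, Cldn19 and Sox10 were lower too. Gjb1, a connexin of Schwann cells that hepatocytes also make, was higher at 9.27 ± 11.1 CPM (1.47 ± 0.53, adjusted p = 0.0139), and Pou3f1, a transcription factor of promyelinating Schwann cells, was higher by 0.57. The 9 measured hepatocyte genes were 3 higher and 0 lower in Cast, and their sum ran from 43.2 to 6402 CPM in its libraries.

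Genes of other cell types are given beside these for Cast, where 33.8% of all genes were called higher and 27.9% lower. The summed myelinating list was 50.4 to 159 CPM in Cast (median 77.5), against strain medians of 92.5 to 142 CPM elsewhere. All 10 fibroblast and matrix genes were lower in Cast, with a median of -1.06, and 7 of 8 endothelial genes were lower and 0 higher. Of 8 axon and motor nerve genes measured, 6 were lower and 2 higher in Cast, with a median of -1.18. Of 13 genes known to respond to denervation of muscle, 8 were higher and 2 lower. The part of these in the lower myelin genes was not tested. With the summed myelinating list as a covariate the Mbp difference in Cast was 0.078 (adjusted p = 0.292), that of Pmp22 -0.24 (adjusted p = 0.0003), and that of Ngfr -0.35 (adjusted p = 0.289). The adipocyte list as covariate moved the Cast differences in opposite ways with and without Car3. The share of Car3 in that sum differed by strain. The median sum was 2039.5 CPM with Car3 and 1688.2 CPM without it in Cast, against 3453.5 and 1085.2 CPM in NZO. With the whole list Mbp was -0.29 (adjusted p = 0.161) and Ngfr -0.35 (adjusted p = 0.225), and without Car3 Mbp was -0.68 (adjusted p = 0.00389) and Ngfr -1.07 (adjusted p = 0.0026). Pmp22 kept its call under both, at -0.49 and -0.85.

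**Figure D4:**
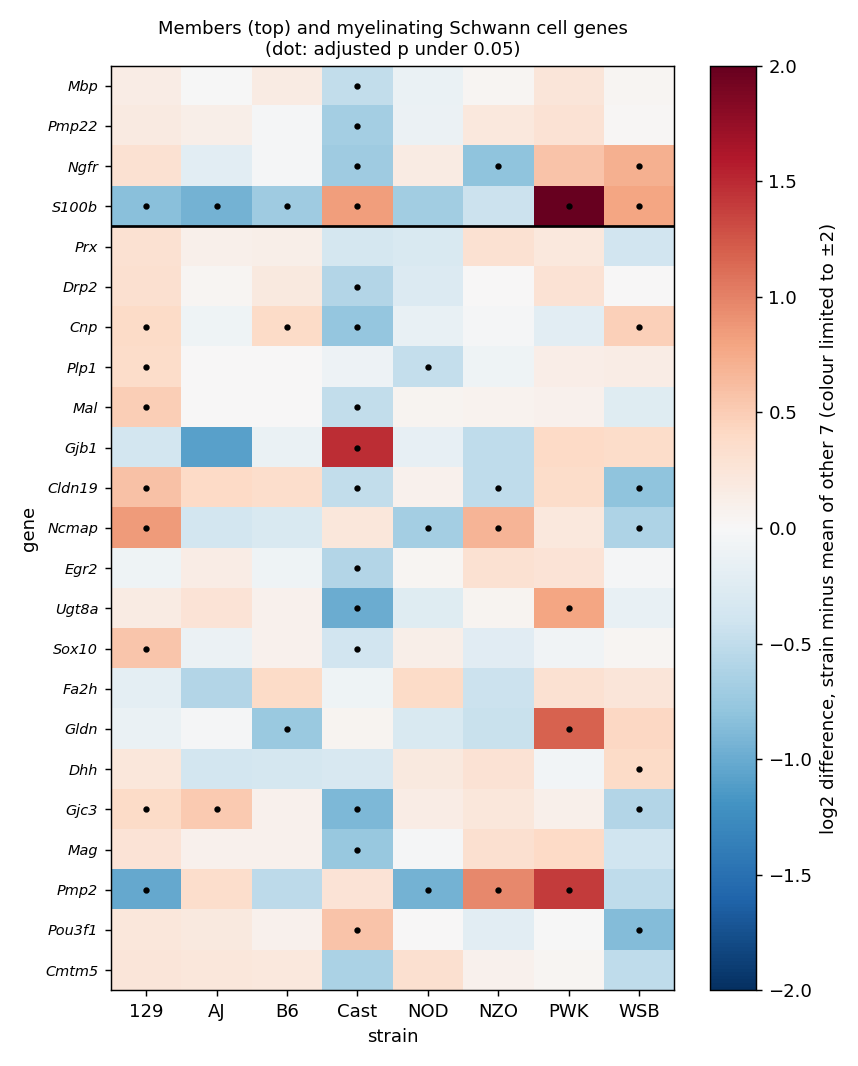
Log2 difference of each strain from the mean of the other 7 (colour) for the 4 members, above the line, and 19 of the 20 further myelinating Schwann cell genes in order of mean level; dots mark adjusted p under 0.05. Of the list genes shown, 9 are lower and 2 higher in Cast, and 7 are higher and 1 lower in 129.

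In 129, where 14.2% of all genes were called higher and 11.4% lower, the myelinating list had more calls higher than lower. There, 7 of 20 were higher and 1 lower (median 0.26), among them Ncmap, a noncompact myelin protein, higher by 0.85 ± 0.17, while Pmp2, the myelin fatty acid binding protein, was lower (-1.02 ± 0.31). Mbp and Pmp22, at 0.15 ± 0.18 and 0.19 ± 0.14 in 129, did not pass but lay within 1 SE of the list's median. In WSB, 2 were higher and 4 lower (median -0.15), beside 21.4% and 17% of all genes. Pou3f1 was at -0.87 there and Cldn19, a tight junction protein of Schwann cells, at -0.80 ± 0.19. In PWK, 3 were higher and 0 lower (median 0.24), beside 20.6% and 20.3% of all genes. The 3 were Pmp2, higher by 1.40 ± 0.25, Gldn, a protein of the node of Ranvier, by 1.18 ± 0.17 and Ugt8a by 0.79 ± 0.25. In NZO 2 were higher and 1 lower, beside 14.6% and 12.7%, and in NOD 0 higher and 3 lower, beside 11.9% and 9.79%. B6 had 1 higher and 1 lower, beside 15% and 11.2%, and AJ had 1 higher and 0 lower, beside 16.8% and 14.9%.

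Adipocyte genes were counted in the strains where S100b was called. Of 12, 10 were higher and 2 lower in WSB, beside 21.4% and 17% of all genes, and 6 were higher and 2 lower in Cast, beside 33.8% and 27.9%. In PWK 1 was higher, 1 lower and 10 did not pass, beside 20.6% and 20.3%, and in 129 0 were higher and 8 lower, beside 14.2% and 11.4%. In AJ 0 were higher and 1 lower, beside 16.8% and 14.9%, and in B6 1 was higher and 0 lower, beside 15% and 11.2%. The adipocyte sum without Car3 was 507 to 1433 CPM in PWK (median 782), 1184 to 2081 in WSB (median 1536) and 814 to 2426 in Cast (median 1688), against medians of 831 to 1085 in the other 5 strains. The PWK call of S100b held with the adipocyte genes as covariate whether or not Car3 was included, and the WSB and Cast calls turned on Car3. With the whole list, Car3 included, S100b differed by 1.99 in PWK, 1.08 in WSB (adjusted p = 8.69e-06) and 1.08 in Cast (adjusted p = 8.16e-06). With the sum without Car3, chosen after the values were seen, S100b differed by 2.29 in PWK (adjusted p = 1.82e-14), by 0.15 in WSB (adjusted p = 0.708) and by 0.23 in Cast (adjusted p = 0.438). Of the lower calls, 129 was lost both with Car3 (-0.38, adjusted p = 0.24) and without it (-0.28, adjusted p = 0.486). B6 passed with Car3 (-0.95, adjusted p = 0.00108) and not without it (-0.55, adjusted p = 0.0702). AJ missed the threshold with Car3 (-0.53, adjusted p = 0.0644) and passed without it (-0.61, adjusted p = 0.0459). Lpl, which muscle fibres and heart muscle also make, holds most of the sum without Car3, at a mean of 683 CPM. With the summed myelinating list as a covariate the PWK difference was 1.79.

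Relatives and partners of the members were called about as often as genes at large. Of 11 neurotrophin and receptor genes other than Ngfr, 9 were called among strains, beside 85.5% of all genes. In Cast, 1 was higher and 4 lower, beside 33.8% and 27.9%, among them Ntrk2, the receptor of brain-derived neurotrophic factor, at 7.52 ± 3.81 CPM (-0.89 ± 0.19). In NZO, where Ngfr was lower, 2 were higher and 2 lower, beside 14.6% and 12.7%, and Ntrk3, the receptor of neurotrophin-3, was lower at 1.20 ± 0.545 CPM (-0.69 ± 0.25). In WSB, 3 were higher and 1 lower, beside 21.4% and 17%, with Rtn4r, a Nogo receptor that pairs with p75, higher by 1.01 and Ntrk3 by 0.82 ± 0.22. Lingo1, a partner of p75 named after its values were seen, was not called (adjusted p = 0.0834).

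Of 10 measured S100 genes other than S100b, 8 were called among strains, beside 85.5% of all genes. In PWK 3 were higher and 1 lower, beside 20.6% and 20.3% of all genes, led by S100a4, higher by 0.83, and S100a1, the form abundant in striated muscle, was lower by 0.43 on the log2 scale. S100a8 and S100a9, the calprotectin pair of neutrophils, were higher in NZO by 3.74 ± 0.52 and 3.87 ± 0.51, where S100b was not called, but their spread there was wide, at 4.34 ± 10.9 CPM for S100a8 (SD, n = 8). All 5 measured relatives of Pmp22 in the EMP and related families were called among strains, beside 85.5% of all genes, and in Cast 3 were lower and 2 higher, beside 27.9% and 33.8%. Emp3 was lower there, at 2.14 ± 1.28 CPM (-0.87 ± 0.18), and Perp, an adhesion protein of stratified epithelia, was higher (1.12 ± 0.47).

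The genes of nonmyelinating, immature and repair Schwann cells had no common direction in Cast. Of 16 tested, 13 were called among strains, beside 85.5% of all genes, and in Cast 6 were higher and 6 lower, beside 33.8% and 27.9%, with a median of -0.01. Nes, an intermediate filament that satellite and endothelial cells also make, was lower at 15.4 ± 5.49 CPM (-1.54 ± 0.12), and Apod, an apolipoprotein of Schwann cells and fibroblasts, was higher by 1.27 on the log2 scale. In PWK 3 were higher and 3 lower, beside 20.6% and 20.3%, with Gdnf, a growth factor for motor neurons, higher at 2.59 ± 1.24 CPM (2.06 ± 0.24). Of 4 genes of the perineurium, the sheath of the nerve bundle, 1 was higher and 2 lower in Cast.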

How the data were processed

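Skeletal muscle RNA of 61 libraries was compared by strain. The submitters' processing notes name GRCm38 as build and DESeq2 as a tool. Aligner, counting tool and strand use were not given in the sources used here. Equal mapping of all strains was not tested. In their tables, the authors deposited expected counts per gene, of which 80.4% of the values were whole, and variance-stabilised values on a log2 scale.

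The expected counts were rounded and tested with edgeR 4.0.16 in R 4.3.3 (filterByExpr, TMM, quasi-likelihood F test, 1 fit with strain as factor, 53 residual degrees of freedom). Within each comparison, Benjamini-Hochberg adjustment ran over 16682 genes, with a threshold of 0.05. Where no other test is named, a gene's adjusted p is that of edgeR. SE was obtained from the log2 difference and the root of its F. Correlations used log2 CPM with a prior count of 2. Neighbouring strains were compared by exact permutation tests. Alternatives included DESeq2 1.42.0, limma 3.58.1 on the deposited log2 values, other filters, covariates and leaving out each library. The fit was checked on simulated data.

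All 4 members are named. For each member the 6 genes with the highest r are named, and of each list the genes with the largest F or largest change in a strain. A few genes that this rule covers are not reported here. The members and lists were chosen with earlier results of these data known. Lists of tendon, smooth muscle, satellite cell, macrophage and keratinocyte genes were also counted. Per the labels, the number of libraries per strain was 7 or 8, and p-values cover the spread between them. Positions were matched to GENCODE M21, which held 19388 of the 19462 gene IDs and the same ends for 4 of 4 members. Promoters came from the RefSeq table, which had entries for 3 members.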

Additional observations from a re-analysis of the deposited data

Results flagged for a closer look

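In 32 groups, each 1 member in 1 strain, the highest and lowest library were tested by the gap to the nearest other library as a share of the strain's range. Chance alone marks about 1 in 20 such groups, and 4 were marked here.

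Mbp in library AJ_3 was 21.4 CPM, far below the other AJ libraries, the nearest of which had 35.2 CPM. Pmp22 in NZO_1 was 82.6 CPM, and the nearest NZO library had 59.5 CPM (ratio 0.549). Ngfr in 129_1 was 2.71 CPM, and the nearest 129 library had 1.62 CPM (ratio 0.534). Both ratios lay just over the critical value. Ngfr in WSB_9 was 4.31 CPM, far above the other WSB libraries, and it is the library without which Ngfr was no longer called in WSB.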

How the results depend on the processing

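The differences among all 8 strains kept their side of the threshold for all 4 members under every alternative tried, including each library left out, except that Ngfr did not pass the stricter filter and has no value there. The numbers within strains did not pair the libraries. Over 186 pairs with the same number in different strains, the correlation of their deviations ran from -0.56 to 0.65 (median 0.011), 72 were above 0.1, and 8 libraries matched best with their own number. With a replicate block on that number, no call of a member changed, and S100b in PWK differed by 1.92 on the log2 scale. The block changed the call counts of some lists. Of the 10 S100 genes tested, for example, 4 were lower in B6 with it and 2 without it. Without the block 11.2% of all genes were lower in B6, and the share with it is not reported here. DESeq2 size factors changed no call of a member, and DESeq2 called S100b lower in NOD (-0.69).

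With the whole adipocyte list, Car3 included, as covariate, calls were gained for Pmp22 in 129 (0.41), AJ (0.32) and NOD (-0.39). Calls were also gained for Ngfr in 129 (0.62) and PWK (0.53), and for S100b in NOD (-1.18) and NZO (-1.10). Calls were lost there for S100b in 129 (-0.38) and AJ (-0.53) and for Mbp (-0.29) and Ngfr (-0.35) in Cast. With lymphocyte, hepatocyte and keratinocyte lists as covariates, S100b in 129 (-0.80), Mbp in Cast (-0.40) and Ngfr in WSB (0.54) were lost and Ngfr in PWK (0.62) was gained. With the myelinating list as covariate, Mbp in Cast turned to 0.078, Ngfr in Cast (-0.35) was lost, and Pmp22 in AJ (0.12) and NZO (0.13) and S100b in NZO (-0.55) were gained. The GT20 number of the titles as covariate gained Ngfr in PWK (0.64). On the deposited log2 values, limma lost S100b in Cast (0.29). The cause of these changes was not tested.

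The following were chosen after seeing the data. With the adipocyte list without Car3 as covariate, S100b was lost in 129 (-0.28), B6 (-0.55), Cast (0.23) and WSB (0.15), Ngfr was lost in WSB (0.27), and Pmp22 (0.40) and Ngfr (0.72) in PWK and S100b in NOD (-0.67) were gained. With the myelinating list added to it, Mbp (-0.011) and Ngfr (-0.70) in Cast and Ngfr (0.46) and S100b (0.45) in WSB were lost, and Pmp22 in AJ (0.16) and NZO (0.12) and S100b in NZO (-0.60) were gained. Without the 6 libraries high in lymphocyte genes, S100b in B6 (-0.64) and WSB (0.56) and Ngfr in WSB (0.17) were lost and Ngfr in PWK (0.67) was gained.

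Leaving out 1 library at a time changed calls for S100b in B6 (-0.94 to -0.60), Cast (0.45 to 1.03) and NOD (-0.78 to -0.61), for Mbp in Cast (-0.64 to -0.39), and for Ngfr in Cast (-0.89 to -0.53), NZO (-0.89 to -0.72), PWK (0.40 to 0.70) and WSB (0.28 to 0.78). Ngfr had as few as 2 counts in a library, which limits its precision.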

Other observations

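In Cast, where the myelin genes were lower, 33.8% of all genes were called higher and 27.9% lower, and the counts of further lists are given beside these shares. Of 10 muscle fibre genes, 5 were higher and 0 lower in Cast, with a median of 0.23 on the log2 scale. Of 8 tendon genes, 0 were higher and 6 lower (median -1.05), and of 8 smooth muscle and pericyte genes 0 were higher and 5 lower (median -0.35). Of 8 satellite cell genes, 3 were higher and 4 lower. The 9 macrophage genes were 1 higher and 4 lower. Of 7 brown adipocyte genes, 6 were higher and 0 lower in Cast (median 1.99). In WSB 4 of them were higher and 0 lower (median 2.46), where 21.4% of all genes were higher and 17% lower. Of 8 keratinocyte genes, 1 was higher and 0 lower in Cast, and 3 were higher and 0 lower in PWK, where 20.6% of all genes were higher and 20.3% lower. The summed keratinocyte genes ran from 2.20 to 305 CPM in the PWK libraries (median 3.84), so a few libraries held most of that sum.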
